A study of Homo sapiens with 20 samples.

Results

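The 78 genes described here carry MRPL or MRPS symbols, the names given to proteins of the mitochondrial ribosome. The rule took protein-coding genes whose name starts with MRPL or MRPS and a number. By symbol they comprised 49 large subunit (MRPL) and 29 small subunit (MRPS) genes. They were taken from 55093 genes listed in the BCI table, 55093 in the BI-D1870 table and 34213 in the table of persistent cells. Subunits follow the symbols throughout, although MRPS30 and MRPS18A belong to the large subunit by place in the ribosome. MRPS36 was left out of a grouping by place. The rule uses no measured value. All samples were HEL cells, an established human erythroleukaemia line that carries an activating JAK2 mutation, so every group shares that mutation and 1 line stands for the disease. RNA was sequenced from 20 libraries in 10 groups of 2.

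In the BCI series, cells were treated with DMSO, the solvent, or with 1 µM BCI, an inhibitor of the dual-specificity phosphatases DUSP1 and DUSP6, for 4 h or 48 h. In the BI-D1870 series, cells received DMSO, 10 µM BI-D1870, an inhibitor of the p90 ribosomal S6 kinases (RSK), or both compounds, at 10 µM and 1 µM, for 24 h. In the persistent series, untreated parental cells stood beside cells kept for a long time with the JAK2 inhibitors ruxolitinib (RuxP) or fedratinib (FedP). The labels do not say whether the inhibitor was present at harvest or how many independent persistent populations were made. Nothing in them ties the 2 libraries of a group to separate cultures, so each p-value reflects the scatter between libraries alone, which may be technical. In bulk RNA, fewer cells of a kind and less RNA per cell cannot be told apart.

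The mitochondrial ribosome makes only the few respiratory chain proteins that mitochondrial DNA encodes. Its RNA is transcribed inside the organelle, whereas every one of its proteins is encoded in the nucleus, made in the cytosol and imported. Erythroid cells depend on mitochondria for haem synthesis as well as respiration, and ETS-family factors such as GABP, together with YY1, NRF1 and MYC, are known regulators of nuclear genes for mitochondrial proteins.

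The genes lay on 21 chromosomes, and their promoters shared sequence features that the choice by symbol did not use. RefSeq promoter windows (GRCh38.p14, 300 bases, 250 before to 50 after the start) were found for 69 of the 78 genes and compared with those of 11322 protein-coding genes tested in the BCI table. The ETS letters CCGGAAG, searched on both strands, were in 29 windows (42%; 17 of 42 large and 12 of 27 small subunit genes) against 17.8% of all windows. The YY1 letters AAGATGGC were in 20 windows (29%; 12 large and 8 small subunit genes) against 4.92%. Both motifs were in 8 windows, with no overlap between their letters, and 28 windows held neither. The NRF1 palindrome was in 1 window, that of MRPL17 (1.45% against 2.15%). The E-box CACGTG, which MYC can bind, was in 7 windows (10.1% against 9.64%). The heat shock element was in 2 windows (2.9% against 0.3%), those of MRPL48 and MRPL51, and the TATA letters TATAAA in 2 (2.9% against 6.4%). A match is a run of letters and not a shown binding site.

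Stretches upstream of the annotated start are given for 6 genes that lead the results after BCI or BI-D1870 and for 2 that show the motifs, each 5′ to 3′ on the gene's strand, with the matched letters in capitals. MRPL18 (chr6:159789692-159789811, plus strand) was the only gene of the 78 to rise after BCI and holds none of the 6 motifs. MRPL17 (chr11:6683402-6683521, minus strand) fell after BCI and holds the NRF1 letters. MRPS26 (chr20:3045825-3045944, plus strand), which fell after BCI, has no match in its printed stretch. Neither have MRPL16 (chr11:59810873-59810992, minus strand) and MRPS18B (chr6:30617590-30617708, plus strand), which fell after BI-D1870. Matches lie elsewhere in the promoter windows of these genes, the ETS letters for MRPS26 and MRPL16 and the YY1 letters for MRPS18B. MRPL3 (chr3:131502984-131503103, minus strand) had the lowest p of the members after BI-D1870 and holds the ETS letters. As examples of the motifs, MRPS34 (chr16:1773156-1773275, minus strand) holds the ETS letters 2 times in reverse orientation, and MRPL52 (chr14:22829759-22829878, plus strand) holds the YY1 letters 2 times.
MRPL18: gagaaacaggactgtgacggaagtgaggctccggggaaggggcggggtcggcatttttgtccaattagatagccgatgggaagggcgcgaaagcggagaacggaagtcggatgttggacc
MRPL17: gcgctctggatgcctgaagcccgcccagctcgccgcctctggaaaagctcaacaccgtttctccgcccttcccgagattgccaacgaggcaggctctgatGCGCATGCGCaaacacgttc
MRPS26: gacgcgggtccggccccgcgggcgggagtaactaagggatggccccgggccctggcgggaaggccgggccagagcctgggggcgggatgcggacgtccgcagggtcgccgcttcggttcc
MRPL16: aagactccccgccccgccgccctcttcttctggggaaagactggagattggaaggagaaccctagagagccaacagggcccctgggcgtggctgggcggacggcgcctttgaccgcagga
MRPS18B: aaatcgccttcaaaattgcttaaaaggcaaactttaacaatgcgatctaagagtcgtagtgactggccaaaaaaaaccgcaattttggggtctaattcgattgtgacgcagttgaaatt
MRPL3: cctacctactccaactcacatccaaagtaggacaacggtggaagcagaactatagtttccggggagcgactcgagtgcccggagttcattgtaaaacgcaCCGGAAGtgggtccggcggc
MRPS34: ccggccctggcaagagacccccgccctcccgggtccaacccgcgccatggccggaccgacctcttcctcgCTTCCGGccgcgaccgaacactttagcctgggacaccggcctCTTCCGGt
MRPL52: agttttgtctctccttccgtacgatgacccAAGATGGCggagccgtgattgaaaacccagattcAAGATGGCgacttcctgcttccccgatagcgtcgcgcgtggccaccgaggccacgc

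Levels were compared between genes as CPM (counts scaled to a common library size) per kilobase of annotated exon. In the DMSO libraries at 4 h the highest levels were those of MRPS34 at 98.2, MRPL37 at 87.6 and MRPL3 at 64.9 CPM per kilobase. MRPS34 is needed for a stable small subunit, MRPL37 belongs to the proteins that only mitochondrial ribosomes have, and MRPL3 is the counterpart of a universal protein near the catalytic centre. The lowest were MRPS24 at 0.146, MRPS18C at 0.904 and MRPL38 at 1.45 CPM per kilobase. The median was 16.5 CPM per kilobase over all 78 genes, 20.1 over the large and 11.5 over the small subunit genes, and 51 genes reached at least 10. In the DMSO libraries at 24 h the same quantity was highest for MRPL37 at 125.3, with MRPL3 at 70.9 and MRPS34 at 69.0 in either order. The parental libraries were led by different genes, replicate 1 by MRPL4 at 67.8 and MRPS34 at 65.9 and replicate 2 by MRPL37 at 40.8 and MRPL45 at 39.4. Most of these proteins are present in 1 copy per ribosome, whereas the transcript levels differed widely within 1 condition. Exon length here merges all annotated exons of a gene, 16393 bases for MRPL42, so genes with many annotated exons rank lower. Other genes overlap 41.1% of the exon bases of MRPL38 and 40.2% of those of MRPS18C. How far annotation accounts for the spread was not tested.

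The MRPS24 level is uncertain, because a readthrough transcript of URGCP and MRPS24 on the same strand covers 23.2% of its exon bases. It was at 0.470 and 0.291 CPM in the DMSO libraries at 4 h, and it passed the filter on low counts only in the BCI table. Thus 78, 77 and 77 members were tested in the BCI, BI-D1870 and persistent tables. Exons of 29 members overlapped a gene on the opposite strand and those of 16 a gene on the same strand. Whether counting used the strand is not given, so shared reads cannot be told apart.

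Totals ran from 51799814 to 84452743 counts per library, and the coefficient of variation between replicates was 13.3% in the BCI table, 5.01% in the BI-D1870 table and 26.9% in the persistent table. The 12 erythroid and megakaryocytic markers checked were present in every library of every table, at 13.5 CPM or more. Of the lymphoid and the epithelial and stromal markers, the highest were CD2 at 22.0 and PDGFRB at 7.18 CPM.

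After 4 h of BCI most mitochondrial ribosomal protein transcripts were slightly lower, 13 of 78 fell, and MRPL18 alone rose. Fold changes are log2, each with its standard error (SE), and calls rest on edgeR's quasi-likelihood test with Benjamini-Hochberg adjusted p under 0.05 over all genes of the table. Of the 13 that fell, 8 were large and 5 small subunit genes. Across all 21908 genes tested, 4.8% rose and 5.94% fell. The median log2 fold change was -0.14 over the 78 members against 0.02 over all genes, and was -0.15 for the large and -0.12 for the small subunit. Values were below 0 for 64 of 78 members, against 47.6% of all genes. In 50 members both BCI libraries lay under both DMSO libraries, against 28.5% of all genes, and in 6 both lay over them, against 30.4%.

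MRPL18 (ENSG00000112110, chr6:159789812-159798436), whose bacterial counterpart holds the smallest RNA of the large subunit, was at 57.0 and 49.4 CPM in DMSO and at 119 and 109 CPM with BCI. Both treated libraries lay above both controls by a wide margin. Its log2 fold change was 1.10 (SE 0.0945, adjusted p = 2.1e-04 by edgeR's quasi-likelihood test), or 2.15-fold. MRPL18 starts 63 bases from TCP1 on the other strand, a subunit of the cytosolic chaperonin that folds actin and tubulin. TCP1 rose too, from 425.2 ± 7.94 to 671.7 ± 10.4 CPM (SD, n = 2), by 0.66 (SE 0.113, edgeR adjusted p = 0.0061). The printed stretch covers all of the bases between the 2 starts.

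MRPS26, a small subunit protein particular to mitochondria, was at 50.2 and 50.7 CPM in DMSO and at 32.1 and 28.6 CPM with BCI. The groups did not overlap, and the change was -0.73 (SE 0.0957, edgeR adjusted p = 0.00157). MRPL17, a large subunit protein with a bacterial counterpart, was at 50.8 and 51.8 CPM in DMSO and at 33.2 CPM in both BCI libraries. It changed by -0.63 (SE 0.0926, edgeR adjusted p = 0.00284), again with no overlap. MRPL18, MRPL17 and MRPS26 passed the threshold in all 10 alternative fits made for single genes, 4 of which left out a library.

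MRPL34, a small large-subunit protein, was at 57.3 and 53.9 CPM in DMSO and at 36.0 and 36.1 CPM with BCI, a change of -0.62 (SE 0.107, edgeR adjusted p = 0.0061). MRPS12, a protein of the decoding centre, was at 77.7 and 84.4 CPM in DMSO and at 57.9 and 52.9 CPM with BCI, a change of -0.55 (SE 0.0864, edgeR adjusted p = 0.0039). In both genes each treated library lay under each control. Parts of their exons overlap genes on the opposite strand, ABHD8 for MRPL34 (13.2% of its bases) and SARS2 for MRPS12 (16.3%). The other 9 that fell were MRPL36, MRPS2, MRPL4, MRPS23, MRPS30, MRPL14, MRPL52, MRPL20 and MRPL16, with log2 fold changes from -0.47 (MRPL36) to -0.28 (MRPL16) and edgeR adjusted p from 0.0106 (MRPL4) to 0.0441 (MRPL16). Apart from MRPL17 and MRPS26, each member that fell lost its call in at least 1 fit that left out a library. The share of all genes called in those fits is not given, so this does not set the members against all genes.

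**Figure D1:**
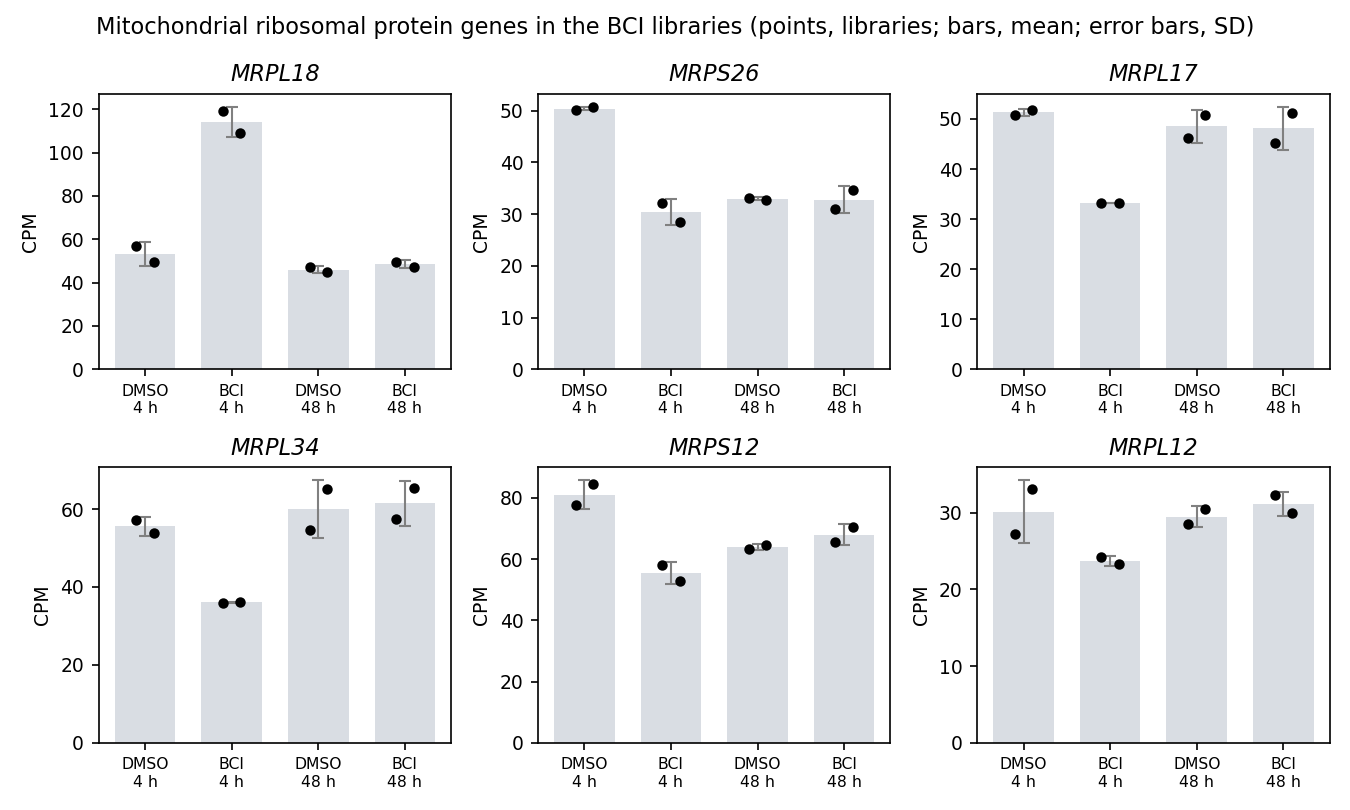
Scaled counts (CPM, vertical axis) of 6 members in the 8 BCI libraries, for DMSO and BCI at 4 h and 48 h. Points are libraries, bars are means and error bars are SD (n = 2). MRPL18 stands at 119 and 109 CPM with BCI at 4 h, above its other libraries, while MRPS26, MRPL17, MRPL34 and MRPS12 are lower with BCI at 4 h and level with DMSO at 48 h.

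Proteins of the stalk, which recruits translation factors, did not pass at 4 h. MRPL12, the stalk protein that also binds the mitochondrial RNA polymerase, was at 27.2 and 33.0 CPM in DMSO and at 24.1 and 23.3 CPM with BCI, a change of -0.35 (SE 0.111, edgeR adjusted p = 0.0838). Its values are uncertain, since it is the only member with over 50% of its exon bases overlapped (68.2%, by AC139530.2 on the same strand). MRPL11, at the base of the stalk, changed by -0.13 and its neighbour MRPL10 by 0.04. Among the 3 MRPS18 paralogues, which derive from 1 bacterial protein, MRPS18A changed by 0.04, MRPS18B by -0.07 and MRPS18C by 0.18, none past the threshold. The small subunit genes MRPS7 (-0.29, edgeR adjusted p = 0.0743) and MRPS22 (-0.07), both known from mitochondrial disease, did not pass either.

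Other lists of the mitochondrial translation system were read against the same shares of all genes, 4.8% higher and 5.94% lower. None of the 13 mitochondrially encoded mRNAs (median -0.04) and none of the 87 cytosolic ribosomal protein genes (median 0.02) passed. Of 14 translation factors 1 rose, GFM2 (0.64), and 3 fell, PDF (-0.66), TSFM (-0.48) and GFM1 (-0.37). GFM1 and GFM2 are elongation factors of the G type, for elongation and for recycling. Of 28 ribosome assembly and RNA-modifying factors 6 fell, led by the methyltransferase MRM1 (-1.06) and the helicase DDX28 (-0.57). Of 22 mitochondrial tRNA synthetases 3 fell, led by MARS2 (-1.09). Of 10 transcription and mRNA factors 2 fell, the mitochondrial RNA polymerase POLRMT (-0.66) and its partner TFB2M (-0.65).

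Among 10 nuclear regulators of mitochondrial genes 4 fell at 4 h, PPARGC1B (-1.11), PPRC1 (-0.74), MYC (-0.57, edgeR adjusted p = 0.0374) and ESRRA (-0.42). NRF1 (-0.30), GABPA (0.12) and YY1 (-0.07) did not pass. Of the 12 erythroid and megakaryocytic markers KLF1 (-0.88) and NFE2 (-0.35) fell in the same libraries, and their part in the result was not tested.

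At 48 h no member differed between BCI and DMSO, and neither did any other gene: 0 of 21908 genes (0%) passed edgeR's quasi-likelihood test. At an unadjusted p under 0.05 there were 0 members and 316 genes. DESeq2 called 0 members at 48 h as well. MRPL18 was at 47.0 and 45.0 CPM in DMSO and at 49.7 and 47.2 CPM with BCI (0.07). MRPS26 was at 33.2 and 32.7 CPM in DMSO and at 31.0 and 34.6 CPM with BCI (-0.01). The other genes that led the list at 4 h had 48 h values of -0.01 for MRPL17, 0.03 for MRPL34 and 0.09 for MRPS12, all with overlapping groups or differences far smaller than at 4 h. The median over the members was 0.07 against 0.01 over all genes, and 67 of 78 values were above 0, against 52.6% of all genes.

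The change of the BCI response between the times was tested directly, as the log2 fold change at 48 h minus that at 4 h. It passed for 5 members, 4 of them upward and 1 downward, against 2.08% and 1.37% of all genes. MRPL18 gave -1.03 (SE 0.133, edgeR adjusted p = 0.00465). MRPS26 gave 0.73 (SE 0.135) and MRPL34 0.66 (SE 0.15), with edgeR adjusted p = 0.0215 and 0.0475. MRPS12 gave 0.64 (SE 0.122) and MRPL17 0.62 (SE 0.13), with edgeR adjusted p = 0.0243 and 0.0346. None of the 5 passed without each library in turn. The share of all genes called in the fits that left out a library is not given.

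The DMSO libraries themselves differed between 48 h and 4 h, so the 2 BCI comparisons do not start from the same level. Of the 78 members 27 were lower at 48 h (18 large and 9 small subunit) and 4 were higher, against 13.2% and 13.5% of all genes. The median was -0.23 over the members, -0.22 for the large and -0.25 for the small subunit, against 0.04 over all genes. With each library left out in turn, many of these calls were lost in at least 1 fit. The share of all genes called in those fits is not given.

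MRPL23, at the exit of the protein tunnel, was at 27.4 and 26.9 CPM at 4 h and at 16.3 and 16.5 CPM at 48 h in DMSO, a change of -0.73 (SE 0.124, edgeR adjusted p = 0.00282). MRPL13, a conserved large subunit protein, went from 38.1 and 38.5 to 23.8 CPM in both libraries, a change of -0.69 (SE 0.0839, edgeR adjusted p = 6.11e-04). MRPS26, which fell with BCI at 4 h, was also lower in DMSO at 48 h, by -0.61 (edgeR adjusted p = 0.00181). Its 48 h DMSO values of 33.2 and 32.7 CPM were thus near its 4 h BCI values of 32.1 and 28.6 CPM.

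MRPL20 changed by -0.62 (edgeR adjusted p = 7.03e-04) and MRPL54 by -0.54 (edgeR adjusted p = 0.00958). Among the members named for a known role, MRPS6 (-0.54), MRPL14 (-0.50), MRPL3 (-0.44), MRPS2 (-0.41), MRPS22 (-0.40), MRPS7 (-0.39), MRPL11 (-0.35), MRPS12 (-0.34) and MRPL44 (-0.30) fell. In the other direction, MRPS16, whose loss causes a respiratory chain disease, was at 40.4 and 41.0 CPM at 4 h and at 56.2 and 55.0 CPM at 48 h, a rise of 0.45 (SE 0.079, edgeR adjusted p = 0.00319), with 14.1% of its exon bases overlapped by DNAJC9-AS1 on the opposite strand. MRPS25 (0.39), MRPL16 (0.39) and MRPL2 (0.34) rose as well. With each library left out in turn, the calls of MRPL20, MRPL14, MRPL3 and MRPS16 held in every fit. Those of the other members named in this paragraph were each lost in at least 1 fit. Of the 10 transcription and mRNA factors 7 fell, against 13.2% of all genes. Among them were SLIRP (-0.78), TFB2M (-0.77), POLRMT (-0.60) and TFAM (-0.44), which packages mitochondrial DNA.

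**Figure D2:**
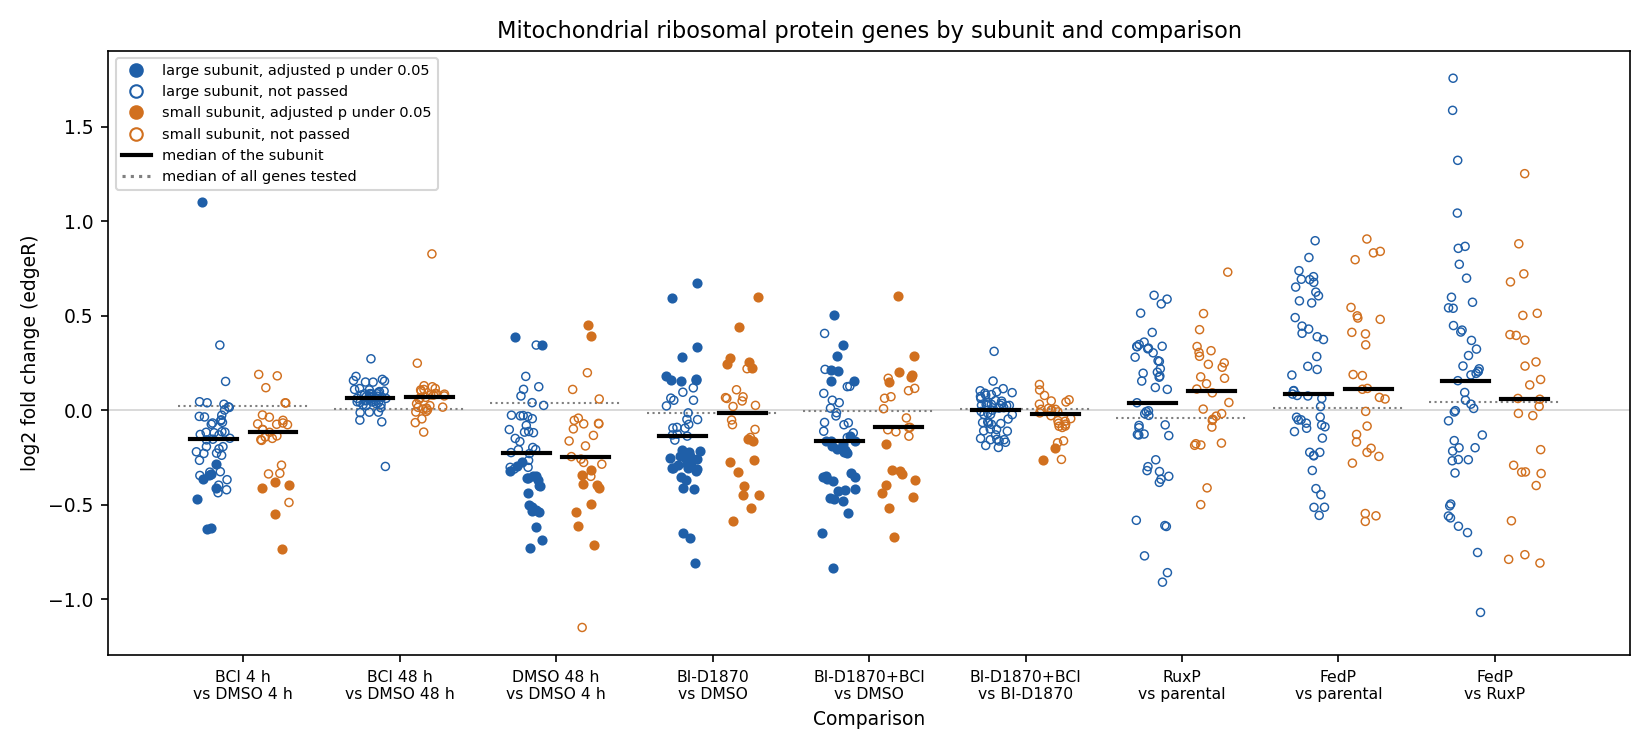
Log2 fold change (vertical axis) of each tested member in 9 comparisons, 1 point per gene, filled where it passed, with large and small subunit genes side by side. Black bars are subunit medians and dotted lines the median over all genes tested. With BCI at 4 h most points of both subunits lie below 0 and MRPL18 lies alone at 1.10, and with BI-D1870 the points spread to both sides of 0.

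BI-D1870 for 24 h changed 48 of the 77 members tested, in both directions. Of these 33 fell (23 large and 10 small subunit) and 15 rose (9 large and 6 small subunit). This treatment changed 47.1% of all 21328 genes tested, with 24.3% lower and 22.8% higher, against 42.9% and 19.5% of the members. The median was -0.10 over the members and -0.01 over all genes. Both treated libraries lay under both controls in 43 members, against 36.3% of all genes, and above them in 18, against 34.2%. Of the 48 calls 35 passed without each library in turn, 27 lower and 8 higher.

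MRPL16 (ENSG00000166902, chr11:59806135-59810872), near the site where the incoming tRNA sits, was at 60.9 and 60.3 CPM in DMSO and at 35.2 and 33.9 CPM with BI-D1870. It changed by -0.81 (SE 0.0617, edgeR adjusted p = 1.63e-09), with no overlap. MRPL3, near the catalytic centre, was at 196 and 189 CPM in DMSO and at 121 and 120 CPM with BI-D1870, a change of -0.68 (SE 0.0418, edgeR adjusted p = 7.9e-11). No other tested member had a lower value than these 2 large subunit genes.

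MRPL23 was at 21.7 and 20.9 CPM in DMSO and at 12.6 and 14.6 CPM with BI-D1870, a change of -0.65 (SE 0.0915, edgeR adjusted p = 6.87e-06). MRPS18B was at 97.6 and 94.8 CPM in DMSO and at 63.5 and 64.8 CPM with BI-D1870, a change of -0.58 (SE 0.0471, edgeR adjusted p = 3.65e-09). MRPS15, an RNA-binding protein of the small subunit, was at 127 and 123 CPM in DMSO and at 83.3 and 90.7 CPM with BI-D1870, a change of -0.52 (SE 0.0487, edgeR adjusted p = 3.3e-08). In all 3 genes the groups were well apart. The other MRPS18 paralogues did not pass, at 0.07 for MRPS18A and -0.05 for MRPS18C.

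Among the rises, MRPL40, a large subunit protein that only mitochondria have, was at 13.0 and 14.2 CPM in DMSO and at 21.2 and 22.0 CPM with BI-D1870. Its change was 0.67 (SE 0.0791, edgeR adjusted p = 6.74e-07). MRPS33, of the small subunit, was at 10.4 and 11.9 CPM in DMSO and at 17.3 and 16.6 CPM with BI-D1870, a change of 0.60 (SE 0.0895, edgeR adjusted p = 1.34e-05). Both genes had treated libraries well above the controls. MRPS6, the counterpart of a bacterial protein of the small subunit platform, was at 24.95 and 27.4 CPM in DMSO and at 36.2 and 34.8 CPM with BI-D1870, a change of 0.44 (SE 0.0664, edgeR adjusted p = 1.61e-05). Below 4 CPM, MRPL53 rose by 0.59, from 1.61 to 2.43 CPM on average. MRPL33 rose by 0.34 (edgeR adjusted p = 9.41e-04) and MRPL41 by 0.28 (edgeR adjusted p = 2.28e-04). Of these, MRPL53 shares 45.2% of its exon bases with CCDC142 on the same strand, MRPL33 21.1% with BABAM2, and MRPS6 9.61% with AP000317.2 and SLC5A3 together. The MRPL53 call was lost in 3 of 4 fits that left out a library.

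**Figure D3:**
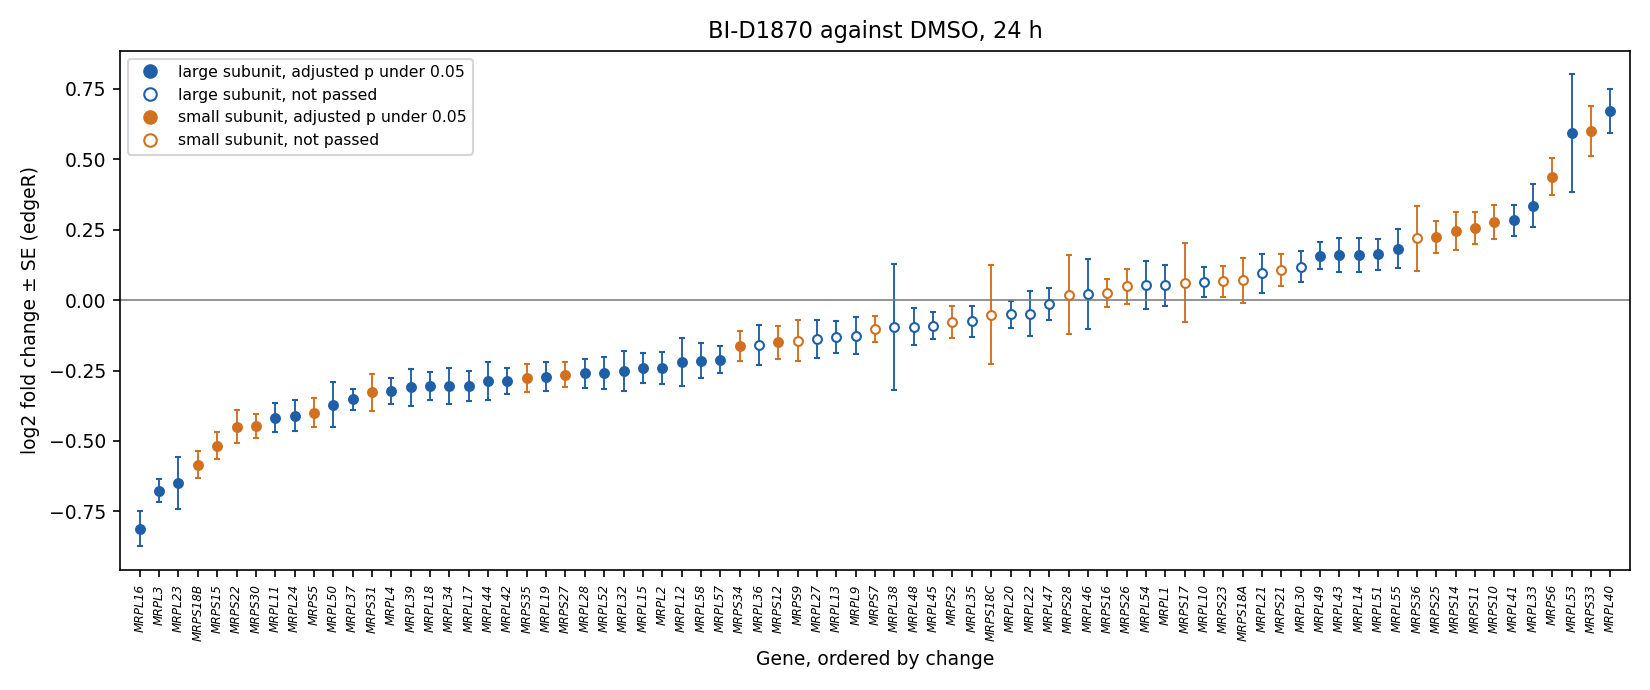
Log2 fold change after BI-D1870 against DMSO (axis in log2 units, bars are standard errors) for the 77 members tested, ranked, with large and small subunit genes in different colours and members past the threshold filled. The order runs from MRPL16 at -0.81 to MRPL40 at 0.67, and genes of both subunits occur along its whole length.

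Values differed within the stalk and the intersubunit face. MRPL11 fell by 0.42, and MRPL12 fell by 0.22 (edgeR adjusted p = 0.0382), whereas MRPL10 (0.06) did not pass. MRPL14, which forms a bridge between the subunits, rose by 0.16 (edgeR adjusted p = 0.0317). Of the small subunit genes MRPS22 changed by -0.45, MRPS34 by -0.16 and MRPS12 by -0.15, each past the threshold, while MRPS2 (-0.08), MRPS7 (-0.10) and MRPS16 (0.03) did not pass. MRPS30, which has a small subunit symbol but sits in the large subunit, changed by -0.45, past the threshold. MRPL44, an RNase-like protein whose mutation causes cardiomyopathy, fell by 0.29. MRPL18, which rose with BCI at 4 h, fell here by 0.31 (edgeR adjusted p = 4.66e-05). With a library left out, the calls of MRPL12, MRPS34 and MRPS12 were each lost in 3 of 4 fits and that of MRPL14 in 2 of 4, while those of MRPL11, MRPS22, MRPS30, MRPL44 and MRPL18 held in all 4.

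The 2 subunits, grouped by symbol, differed little. The median with BI-D1870 was -0.14 for the large and -0.02 for the small subunit genes, a gap of -0.12 that ran from -0.20 to -0.02 when each library was left out and was -0.18 among genes of at least 4 CPM. In the other comparisons the gap was from -0.07 to 0.10. It is given as a description, without a test. Summed CPM, on which the highest genes weigh most, fell in both subunits, although the small subunit median was only -0.02. The large subunit sum was 2577 ± 35.5 CPM in DMSO and 2242 ± 14.3 CPM with BI-D1870 (SD, n = 2), and the small subunit sum was 1435 ± 10.5 and 1295 ± 0.489 CPM.

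**Figure D4:**
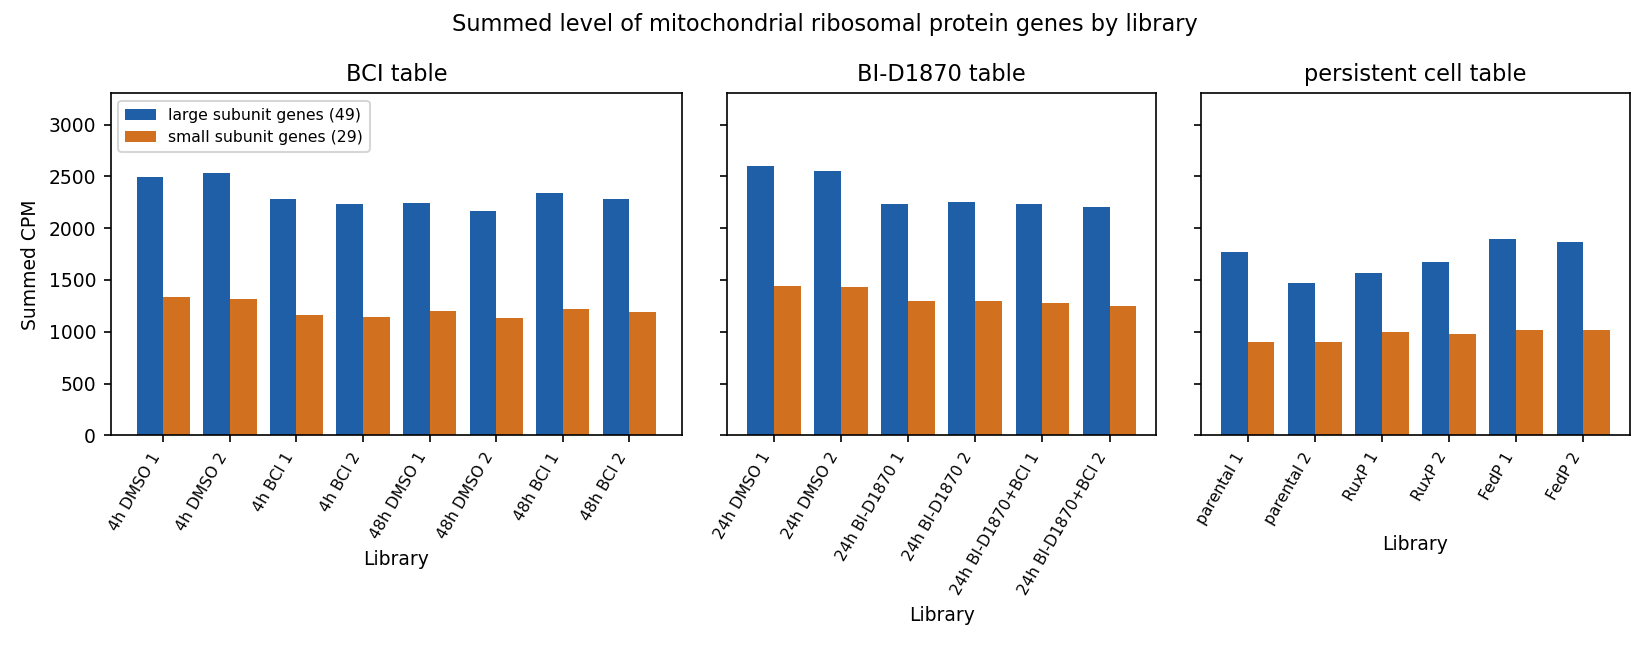
Summed CPM (vertical axis) of the 49 large and the 29 small subunit genes in each of the 20 libraries, 1 pair of bars per library and 1 panel per table. Sums are lower with BCI than with DMSO at 4 h for both subunits, lower with BI-D1870 than with DMSO, and the large subunit sum differs between the 2 parental libraries (1771 and 1472 CPM).

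The mitochondrially encoded RNAs rose with BI-D1870, while the median over the members' transcripts was -0.10, against -0.01 over all genes. The library kit is not given, so how rRNA was handled is unknown. With BI-D1870 the mitochondrial rRNAs MT-RNR1 (1.17) and MT-RNR2 (0.97) and all 13 mitochondrially encoded mRNAs (median 0.72) rose. The lists here and in the next paragraph are read against the shares of all genes, 22.8% higher and 24.3% lower. Cytosolic ribosomal protein genes gave 41 rises and 9 falls of 86 tested. Of 22 mitochondrial tRNA synthetases 12 fell, TARS2 (-0.54) among them, and 3 rose, RARS2 (0.37) among them. Of 28 assembly factors 10 rose, YBEY (1.43) and MPV17L2 (0.88) the most, and 7 fell, MRM1 (-0.86), MTG1 (-0.74) and TFB1M (-0.64) the most.

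Of 14 translation factors 2 rose and 6 fell, including the elongation factor TUFM (-0.31). Of the 5 mitochondrial ribosome proteins with other symbols, DAP3 (0.21) rose and GADD45GIP1 (-0.41), PTCD3 (-0.27) and CHCHD1 (-0.24) fell. Of the 10 transcription and mRNA factors 5 fell, with POLRMT at -0.24, and TFAM (0.07) did not pass. Of the 10 nuclear regulators 7 fell, MYC (-0.80) and PPARGC1B (-0.64) among them, whereas GABPA (-0.08), YY1 (-0.05) and NRF1 (0.02) did not pass. Of the 12 erythroid and megakaryocytic markers 9 fell and 3 rose in the same libraries. The lymphoid markers, led by CD2, summed to 20.3 and 21.6 CPM in DMSO and 5.30 and 5.18 CPM with BI-D1870. The part of either marker list in the members' changes was not tested.

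Members with the ETS letters in the promoter window were centred higher after BI-D1870 than those without. The median was -0.01 over 29 members with the letters and -0.22 over 39 without. Of these, 16 and 29 passed in either direction, against 47.1% of all genes. With BI-D1870 and BCI together, which shares the DMSO libraries, the medians were 0.01 and -0.21. With BCI at 4 h they were -0.07 and -0.16, and in DMSO at 48 h against 4 h -0.23 and -0.22. For the YY1 letters the medians after BI-D1870 were -0.10 with and -0.13 without. These are descriptions across genes, which share libraries, and no test was made.

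With BI-D1870 and BCI together, set against the same DMSO libraries, falls again outnumbered rises. Of 77 members 36 were lower (26 large and 10 small subunit) and 13 higher (7 and 6), against 24.3% and 22.6% of all genes. The median was -0.12 over the members, -0.16 for the large and -0.09 for the small subunit, against -0.01 over all genes. Of the 49 calls 29 passed without each library in turn. MRPL16 was at 36.1 and 31.9 CPM with both compounds, a change of -0.83 (edgeR adjusted p = 8.83e-10). The next falls were MRPS18B (-0.67), MRPL3 (-0.65), MRPL23 (-0.55) and MRPS30 (-0.52). The leading rises were MRPS33 (0.60), MRPL40 (0.50), MRPL41 (0.34), MRPL33 (0.29) and MRPS11 (0.29).

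MRPL18 was at 46.3 and 44.9 CPM with both compounds, a change of -0.47, and so lay below DMSO where BCI alone at 4 h had raised it. The times differ, and no library labelled as BCI alone at 24 h was analysed here, although the table heads the 48 h columns 24h. MYC changed by -0.97, and 12 of 13 mitochondrial mRNAs rose (median 0.33), against 22.6% of all genes.

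Against BI-D1870 alone, the pair changed 2 members, both downward, against 2.48% of all genes lower and 2.22% higher. MRPS6 was at 36.2 and 34.8 CPM with BI-D1870 and at 30.2 and 28.9 CPM with both, a change of -0.26 (SE 0.0652, edgeR adjusted p = 0.0238). MRPS21, of the small subunit, was at 54.7 and 58.3 CPM with BI-D1870 and at 49.8 and 48.6 CPM with both, a change of -0.20 (SE 0.0568, edgeR adjusted p = 0.0499). Neither passed when any 1 library was left out. The median over the members was -0.01, while all 13 mitochondrial mRNAs fell (median -0.35).

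In persistent cells no member passed edgeR's quasi-likelihood test. RuxP against parental gave 0 of 77, where 4.28% of all genes rose and 2.17% fell. At an unadjusted p under 0.05 there were 7 of 77 members and 3800 of all 15924 genes. FedP against parental gave 0 of 77, against 3.84% and 2.79%, with 15 members and 3975 genes at an unadjusted p under 0.05. FedP against RuxP gave 0 of 77, against 0.232% and 1.16%, with 19 members and 5103 genes at that level. DESeq2 called 4, 6 and 12 members in these comparisons, and the share of all genes it called is not given here. The lowest edgeR adjusted p were 0.0517 for MRPS6 in RuxP, 0.0554 for MRPL52 in FedP and 0.0877 for MRPL41 between them.

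The 2 parental libraries stood apart from each other, and the changes depend on which is kept. The large subunit sum was 1771 CPM in replicate 1 and 1472 CPM in replicate 2, against 902 CPM of small subunit genes in each, so the ratio of the sums was 1.96 and 1.63. Mitochondrial mRNAs made up 127174 and 195268 CPM. In RuxP against parental, MRPL12 ran from -0.873 to 0.48 and MRPS12 from -0.977 to 0.53 over the fits that left out 1 library. The upper values came without parental replicate 1. In such a fit the lone parental library is assumed to vary like the other groups.

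MRPS6 was at 12.9 CPM in both parental libraries, 22.7 and 20.1 CPM in RuxP and 16.6 and 17.5 CPM in FedP. Both RuxP libraries lay above the others, and the RuxP value was 0.73 (SE 0.159, edgeR adjusted p = 0.0517), just short of the threshold. MRPL3 gave 0.59 in RuxP (edgeR adjusted p = 0.0666). MRPL41 was at 32.6 and 15.2 CPM in parental cells, 9.88 and 16.4 CPM in RuxP and 46.6 and 42.5 CPM in FedP. MRPL10 was at 87.4 and 37.3 CPM in parental cells, 25.4 and 41.0 CPM in RuxP and 102.8 and 96.6 CPM in FedP. In both genes the parental libraries overlapped the RuxP range, and FedP lay above all.

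Between the persistent lines, MRPL41 gave 1.76 (SE 0.411, edgeR adjusted p = 0.0877), MRPL10 1.59 (SE 0.428, edgeR adjusted p = 0.0991), MRPS12 1.25 (edgeR adjusted p = 0.13) and MRPL12 1.04 (edgeR adjusted p = 0.155). None passed. MRPS12 was at 28.4 and 10.3 CPM in parental cells, 12.6 and 16.5 CPM in RuxP and 35.3 and 34.0 CPM in FedP, so that parental replicate 1 was near FedP and replicate 2 near RuxP. MRPL34 and MRPL1 were picked after their values were seen, as a gene of that pattern and one of the opposite. MRPL34 was at 41.96 and 18.7 CPM in parental cells, 16.4 and 23.2 CPM in RuxP and 48.7 and 50.3 CPM in FedP, and MRPL1 at 5.24 and 9.77, 11.3 and 10.1, and 5.15 and 5.04 CPM.

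**Figure D5:**
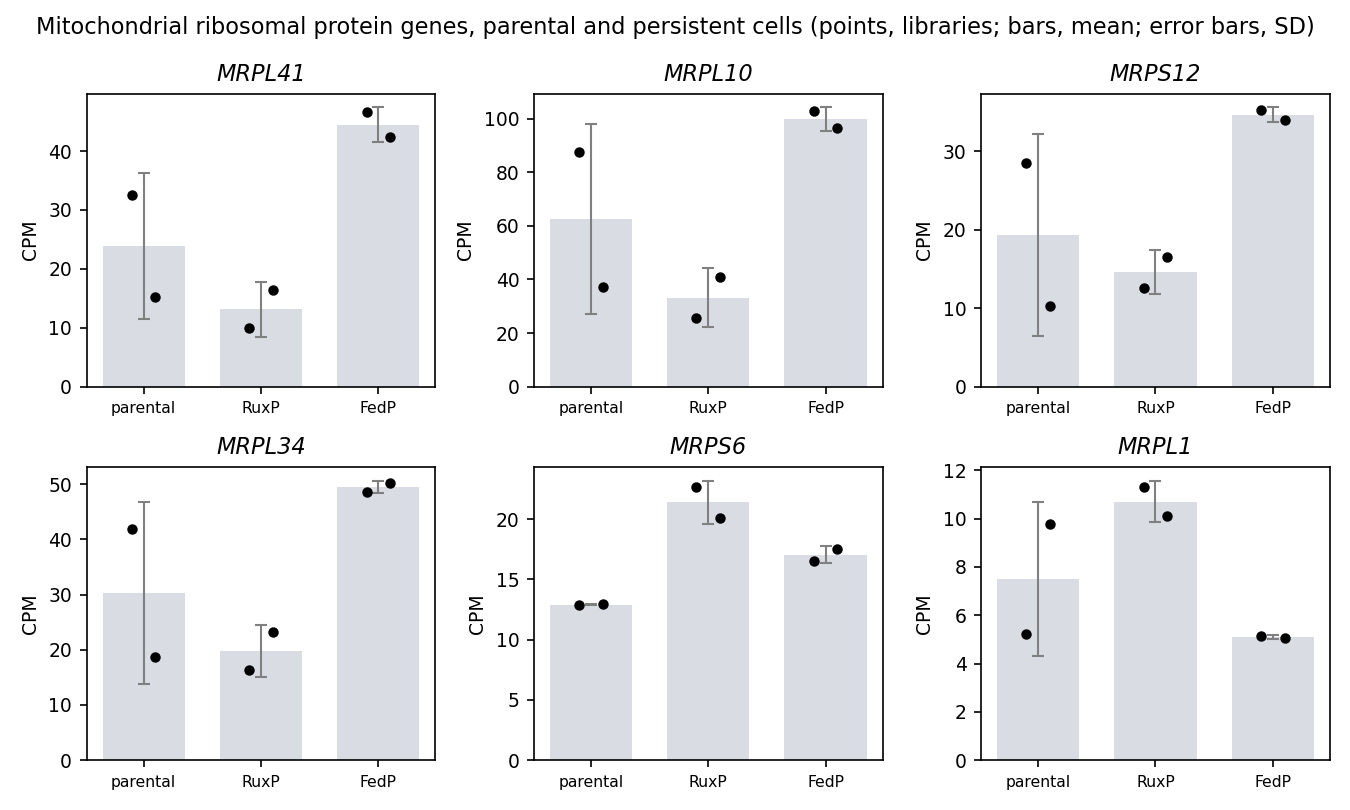
Scaled counts (CPM, vertical axis) of 6 members in the 6 libraries of the persistent table, for parental, RuxP and FedP cells. Points are libraries, bars are means and error bars are SD (n = 2). In MRPL41, MRPL10, MRPS12 and MRPL34 parental replicate 1 lies near FedP and replicate 2 near RuxP, MRPL1 has the opposite order of levels, and MRPS6 is level in the parental libraries and higher in RuxP.

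The medians in persistent cells were close to those of all genes. In RuxP the median was 0.09 over the members (0.04 large, 0.10 small) against -0.04, and in FedP, which shares the parental libraries, 0.10 (0.09 and 0.11) against 0.01. Between FedP and RuxP it was 0.09 (0.16 and 0.06) against 0.04. Groups did not overlap for 19 members upward and 8 downward in RuxP, against 24% and 23.9% of all genes, and for 35 and 14 in FedP, against 33% and 30%. The sums were 1622 ± 75.7 CPM (RuxP) and 1880 ± 14.9 CPM (FedP) for the large and 991 ± 13.6 and 1018 ± 2.25 CPM for the small subunit (SD, n = 2). In the same libraries the median of the mitochondrial mRNAs was 0.22 in RuxP, -0.89 in FedP and -1.20 between them, with 0, 2 and 1 of 13 past the threshold, all lower. Erythroid and megakaryocytic markers summed to 5697 and 3933 CPM in parental cells, 2498 and 2939 CPM in RuxP and 4653 and 4551 CPM in FedP, and their part in the members' values was not tested.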

How the data were processed

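RNA of 20 HEL libraries was sequenced on a NovaSeq after RNeasy extraction with DNase, per the labels' protocols. Reads were aligned with STAR 2.5.1a to GRCh38 after bcl2fastq, and the authors used edgeR, per the submitters' processing notes. The authors deposited 3 tables of unnormalized counts, 1 value per gene and library. For the counting program, annotation release, strand setting and library kit, nothing is given in the sources used here. Of counts from 1 to 20, 66.8 to 69.4% were even, so a fragment may stand for 2 counts. In the BCI table, headings of the later columns say 24h where the sample labels say 48 h, which was used. All value columns were matched to a sample (0 unmatched).

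Where a gene had repeated lines the first was kept, and 116, 116 and 130 lines were dropped. Each table was fitted alone in R 4.3.3 with edgeR 4.0.16 (filterByExpr by group, TMM, quasi-likelihood, all groups, no block), with Benjamini-Hochberg adjusted p under 0.05. CPM use TMM library sizes and are not comparable between tables. A standard error is the fitted log2 fold change divided by the square root of its F statistic. Depth was 51799814 to 84452743 counts per library, so the limit of 3 counts that a count of 0 allows was 0.0351 to 0.0604 CPM, for counting error only. Scripts were tested on simulated counts. Positions are from GENCODE 29, and promoter letters from RefSeq (GRCh38.p14).

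Although the rule for members uses symbols only, the members and lists were chosen with earlier results of these data known. Genes are named if they are among the 5 largest passing rises or falls of at least 4 CPM with groups apart, or from a set with known roles, and a few others as stated. There were 10 comparisons. Alternatives were other normalization, DESeq2 1.42.0, filters, fits of only the groups compared, a replicate block and leaving out each library. Counts halved, and subunits by place in the ribosome, were added after the data were seen. For the latter, MRPS30 and MRPS18A were moved to the large subunit and MRPS36 was left out, and its gaps are not given.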

Additional observations from a re-analysis of the deposited data

Results flagged for a closer look

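For 5 members the response to BCI differed between 48 h and 4 h in the test of the difference itself (edgeR's quasi-likelihood test, adjusted over all genes). The difference of the log2 fold changes was -1.03 for MRPL18, 0.73 for MRPS26, 0.66 for MRPL34, 0.64 for MRPS12 and 0.62 for MRPL17. For MRPL18 the effect went from 1.10 at 4 h to 0.07 at 48 h, and the other genes went from falls to values between -0.01 and 0.09. Each group held 2 libraries, and none of the 5 passed in every fit that left out 1 library.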

How the results depend on the processing

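The members below 4 CPM hold the fewest counts, and the effect of depth on them was not tested. With BCI at 4 h 14 members passed, 23 with DESeq2 and 29 when only the 4 h libraries were fitted. With BI-D1870 the gap between the large and the small subunit medians was -0.12, and -0.18 among genes of at least 4 CPM. In RuxP against parental 0 members passed, 1 with no low-count filter, 1 at a mean of at least 4 CPM, 4 with DESeq2 and 1 with halved counts. In FedP against parental the numbers were 0, then 2, 1, 6 and 1 under the same settings. In FedP against RuxP they were 0, 9 with no low-count filter, 12 with DESeq2 and 27 when only the groups compared were fitted. The cause was not tested in any of these. For the alternative fits, in every section, the share of all genes called is not given. These counts therefore do not set the members against all genes. With DESeq2's size factors, and in all settings not named other than leaving out a library, the counts of members stayed within 1.5 times.

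Leaving out 1 library at a time gave 3 to 5 members with BCI at 4 h, 0 at 48 h, 0 to 8 for the difference between the times and 10 to 31 for DMSO at 48 h against 4 h. It gave 38 to 44 with BI-D1870, 36 to 40 with both compounds, 0 for both against BI-D1870, 0 to 20 in RuxP, 0 to 32 in FedP and 0 between them. The gap between the subunit medians ran from -0.0944 to -0.00519 with BCI at 4 h, from 0.00604 to 0.0292 at 48 h, from 0.0107 to 0.11 for their difference and from -0.0542 to 0.027 in DMSO. It ran from -0.20 to -0.0214 with BI-D1870, from -0.0969 to -0.0569 with both, from -0.00936 to 0.0485 between these, from -0.13 to 0.0426 in RuxP, from -0.0923 to 0.16 in FedP and from -0.000164 to 0.10 between them. At 48 h of BCI, where no gene passed, signs changed in these fits for MRPL34, MRPS26 and MRPL17. MRPL34 ran from -0.0768 to 0.165, MRPS26 from -0.0800 to 0.0723 and MRPL17 from -0.0954 to 0.0796. In RuxP, MRPL12 ran from -0.873 to 0.48 and MRPS12 from -0.977 to 0.53, the upper values without parental replicate 1.

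The labels number the replicates without saying that a number pairs them. With the replicate number as a block, 18 members passed with BCI at 4 h and 34 in DMSO at 48 h against 4 h. With BI-D1870 48 passed, and 50 with both compounds. Without the block the numbers were 14, 31, 48 and 49. The 175 gene values followed through the fits were the calls made without the block and a short list of added genes. Each kept its side of the threshold, so the members newly past it lay outside these values. Same-numbered libraries had deviations from their group means correlated from -0.222 (parental and RuxP) to 0.316 (DMSO and BCI at 48 h) across genes. The other pairs of the BCI table lay from -0.0446 to 0.0325. The main result at 48 h, where no gene passed, came from the fit without a block.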

Other observations

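Of the members, 28 start within 1000 bases of the start of a tested protein-coding gene on the opposite strand, as MRPL18 does with TCP1. With BCI at 4 h, which raised 4.8% and lowered 5.94% of all genes, 5 of these members and 7 of the partners passed edgeR's quasi-likelihood test, and both did in 2 pairs, 1 of them in the same direction. With BI-D1870, which changed 47.1% of all genes, 16 members and 16 partners passed, and both did in 9 pairs, 2 of them in the same direction; these are counts only. One of the others was MRPS18B (-0.58) with PPP1R10 (0.70), with no exon bases of MRPS18B overlapped in GENCODE 29. TCP1 changed by -0.42 with BI-D1870 and MRPL18 by -0.31. The 75 pseudogenes that carry MRPL or MRPS symbols summed, over library means, to 10.94 CPM in the BCI table and 11.27 CPM in the BI-D1870 table, and the highest, MRPL45P2, was at 3.39 and 4.27 CPM.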
